A study of Rattus norvegicus with 30 samples.

Results

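The 7 genes described here build endothelial caveolae and their diaphragms, and were followed across CD31-positive rat lung cells: Cav1, Cav2, Cavin1, Cavin2, Cavin3, Ehd2 and Plvap. They were taken by gene name, and all 7 were found among the 30562 rows of the deposited table and were among the 16171 genes tested. The cells came from the lungs of wild-type rats 3 weeks after sham or Glenn surgery and were sorted by CD31, which endothelial cells carry on their surface. The Glenn operation connects a caval vein with the pulmonary artery, and blood then reaches the lung without hepatic venous return. Each operation was combined with a control, a vitamin A deficient or a vitamin A excess diet. The 6 groups, named here by surgery and diet, held 5 libraries each. Every group shares the genotype, the sort and the time after surgery. Both sexes were present in every group, as read from a Y-linked gene below. The labels do not say that replicates came from separate animals, so p-values measure the spread between these libraries, which may in part be technical.

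Caveolae are flask-shaped pits of the plasma membrane, abundant in lung endothelium, where they are known for transcytosis, for signalling platforms and as a membrane reserve under stretch. Cav1, an integral membrane protein, builds the caveolar coat, and Cav2 joins it in mixed oligomers. The cavins form an outer coat: Cavin1 is the core subunit, and Cavin2 and Cavin3 are accessory subunits that bind it. Ehd2 is an ATPase that holds the caveolar neck at the membrane. Plvap, also called PV1, makes the thin diaphragms across the openings of endothelial caveolae and fenestrae and is known as a regulator of vascular permeability.

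Total estimated counts ran from 22 to 77.6 M per library (M, mega), with a median of 40 M. The labels' library numbers fall into 2 ranges, called here series A (22 libraries) and series B (8 libraries). The 8 series B libraries are replicates 3 to 5 of sham on the deficient diet, replicates 4 and 5 of Glenn on the deficient diet and replicates 3 to 5 of Glenn on the excess diet. A second division came from the values: RT1-CE16, a class I histocompatibility gene, was above 100 CPM in 13 libraries, among them all of series B, and lower in 17, among them all 5 of sham on the excess diet. CPM stands for counts scaled to a library total of 1 M. Ddx3y, a Y-linked gene, was above 10 CPM in 13 libraries, taken as male, and lower in 17, taken as female. These were not the same libraries as in the RT1-CE16 division. On the excess diet replicates 1 and 5 of sham and replicates 1, 4 and 5 of Glenn were male. Sex was not a term of the main fit. The endothelial markers (8 of 8 tested, led by Cdh5) summed to between 7483 and 9289 CPM in sham libraries and between 5621 and 7991 CPM in Glenn libraries. Their mean log2 score did not pass the test on any diet. The list was not steady, however: averaged over diets, edgeR called 3 of the 8 markers higher and 4 lower. Values given below relative to the endothelial markers are set against the mean of this list. Transcripts known from other cell types were also present. Markers of type 2 alveolar cells summed to at least 24750 CPM in every library, and leukocyte markers (3 of 6 tested) to at most 33.4 CPM.

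Sequences upstream of 4 of the genes are shown because Plvap, Cav2 and Cavin2 are the 3 that fell after Glenn surgery and Cav1, which was not called, is the immediate neighbour of Cav2, with 0 genes between them in the RefSeq table. They are the 250 bases before the annotated start, from RefSeq's GRCr8 build, 5′ to 3′ on the strand of the gene. For Cav1 the first of its annotated starts is shown. RefSeq's table held such a sequence for 6 of the 7 genes. Capitals mark matches, on either strand, to one of the motifs searched.
Plvap, chr16:18231280-18231529, minus strand: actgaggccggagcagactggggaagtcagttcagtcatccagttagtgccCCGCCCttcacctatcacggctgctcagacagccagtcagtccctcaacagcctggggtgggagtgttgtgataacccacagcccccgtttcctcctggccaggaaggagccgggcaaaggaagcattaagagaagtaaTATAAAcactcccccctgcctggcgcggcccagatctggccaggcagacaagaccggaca
Cav2, chr4:46582431-46582680, plus strand: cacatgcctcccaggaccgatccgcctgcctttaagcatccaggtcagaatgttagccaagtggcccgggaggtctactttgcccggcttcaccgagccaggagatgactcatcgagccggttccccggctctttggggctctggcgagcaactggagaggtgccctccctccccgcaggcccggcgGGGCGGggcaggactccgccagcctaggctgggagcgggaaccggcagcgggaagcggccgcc
Cavin2, chr9:57806025-57806274, minus strand: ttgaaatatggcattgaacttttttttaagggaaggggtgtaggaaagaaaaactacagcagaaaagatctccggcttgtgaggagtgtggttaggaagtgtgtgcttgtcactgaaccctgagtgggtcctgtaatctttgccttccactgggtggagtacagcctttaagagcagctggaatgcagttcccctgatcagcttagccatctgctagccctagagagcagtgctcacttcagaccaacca
Cav1, chr4:46606288-46606537, plus strand: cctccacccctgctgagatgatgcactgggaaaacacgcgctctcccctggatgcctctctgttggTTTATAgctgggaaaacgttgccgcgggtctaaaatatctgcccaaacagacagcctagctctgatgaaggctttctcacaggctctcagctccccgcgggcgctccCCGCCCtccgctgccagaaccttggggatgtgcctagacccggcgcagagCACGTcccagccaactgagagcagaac

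Shares are given over 33469 promoters of the same length. The core bound by ETS factors, CCGGAA, was found in 12.6% of them, and the GC box, GGGCGG, in 30.5%. A GC-rich element of BMP-responsive SMADs, with the letters GGCGCC, was found in 8.69%. The E-box searched was CACGTG, found in 5.59%, and the hypoxia response core, ACGTG, which every such E-box contains, in 16.6%. The TATA box was searched as TATAAA and found in 12.9%. The Plvap window held TATAAA, its leftmost base 60 bases before the start, and a GC box on the opposite strand. The Cav2 window held a GC box 63 bases before the start. The Cav1 window shown held a GC box, ACGTG and TATAAA, all on the opposite strand, while the window of a second annotated Cav1 start held 0 matches. The Cavin2 window held none of the 6 motifs, and its GC content was 47.6%, beside 59.2% for Plvap, 68.4% for Cav2, 60.0% for Cav1 and a median of 51.2% over the table. A match is a description of letters and not of a bound site.

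Plvap, the diaphragm gene, was the member that changed most. After sham surgery on the control diet it stood at 5008, 5388, 5528, 4943 and 4680 CPM, and after Glenn surgery on that diet at 1699, 1453, 1122, 1030 and 928 CPM. On the deficient diet the sham libraries held 5606, 5049, 3407, 4825 and 4707 CPM and the Glenn libraries 2058, 1405, 1257, 1398 and 1386 CPM. On the excess diet the values were 5949, 5548, 5245, 5163 and 6192 CPM in sham libraries and 3124, 2128, 1317, 1549 and 1597 CPM in Glenn libraries. Every Glenn library lay below every sham library, and the closest pair was replicate 1 of Glenn on the excess diet and replicate 3 of sham on the deficient diet. The mean fell from 5149 ± 651 to 1563 ± 545 CPM (SD, n = 15 each), which is 3.23-fold lower in the fit that averages the diets (log2 change -1.69, SE 0.09, edgeR quasi-likelihood adjusted p 4.76e-15). From the lowest log2 change up, Plvap was number 135 of 16171 genes.

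**Figure D1:**
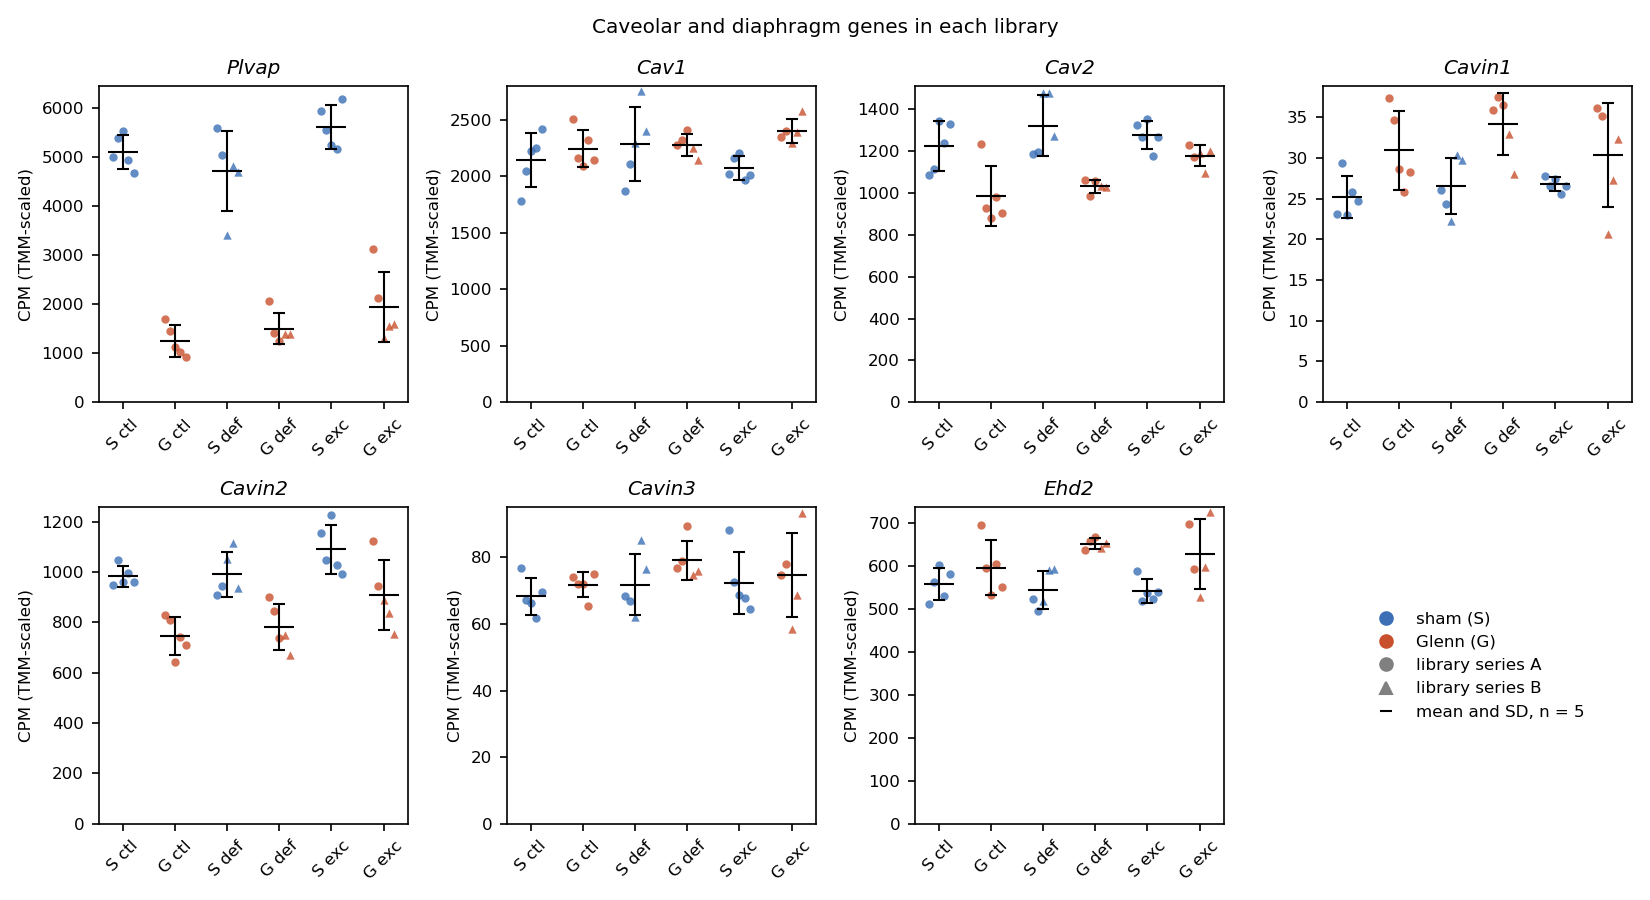
TMM-scaled CPM of each gene in each library (vertical axes start at 0), by surgery (S sham, G Glenn) and diet (ctl control, def deficient, exc excess); points are libraries, circles series A and triangles series B, and bars the mean and SD of 5. Plvap separates all Glenn from all sham libraries, from 928 to 3124 against 3407 to 6192 CPM, and the other 6 genes overlap between the surgeries.

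The fall was 4.10-fold on the control diet (log2 change -2.04, SE 0.16, edgeR adjusted p 9.46e-11), 3.32-fold on the deficient diet (-1.73, SE 0.16, edgeR adjusted p 2.18e-09) and 2.49-fold on the excess diet (-1.32, SE 0.17, edgeR adjusted p 1.24e-06). Whether these 3 falls differ was tested directly as an interaction of surgery and diet. For Plvap its p was 0.0148 and its edgeR adjusted p 0.758, so a difference between the diets was not called. The sizes on the deficient and excess diets also depend on the series term of the fit. For Plvap that term was -0.44 on the log2 scale (series B minus series A, edgeR adjusted p 0.0767). The averaged fall of Plvap was -1.62 in series A alone, -1.57 among the RT1-CE16-low libraries and -1.57 relative to the endothelial markers (log2). Among endothelial subtypes, general capillary markers (5 of 5 tested) had 3 called lower and 0 higher by edgeR, averaged over diets. They summed to between 1691 and 2350 CPM in sham libraries and between 982 and 1527 CPM in Glenn libraries. Venous markers (6 of 6) summed to between 1825 and 2945 and between 1047 and 2302 CPM, with 5 lower and 1 higher. Aerocyte capillary markers (6 of 6) summed to between 1041 and 1789 and between 772 and 1201 CPM, with 3 lower and 2 higher. Arterial markers (7 of 7) summed to between 877 and 1245 and between 837 and 1603 CPM, with 2 lower and 5 higher. The part of these subtypes in the fall of Plvap was not tested. In bulk libraries, fewer cells of a type and less RNA per cell cannot be told apart.

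Cav1, the main coat protein, was not called. After sham surgery it stood at 1783, 2041, 2225, 2245 and 2413 CPM on the control diet, at 1865, 2111, 2294, 2749 and 2397 CPM on the deficient diet and at 2016, 2164, 2200, 1966 and 2011 CPM on the excess diet. After Glenn surgery the values were 2501, 2162, 2094, 2322 and 2142 CPM, then 2275, 2318, 2404, 2248 and 2144 CPM, then 2347, 2399, 2292, 2387 and 2572 CPM on the same diets. The groups overlapped on the control and deficient diets, and on the excess diet all 5 Glenn libraries lay above all 5 sham libraries. The mean was 2165 ± 243 CPM in sham libraries and 2307 ± 136 CPM in Glenn libraries (SD, n = 15 each), with a log2 change of 0.08 (95% interval -0.02 to 0.18, edgeR adjusted p 0.175). Within the 17 RT1-CE16-low libraries the change of Cav1 was 0.23 (edgeR adjusted p 0.00948), in series A 0.17 (adjusted p 0.0222), and relative to the endothelial markers 0.24 (adjusted p 0.00142).

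Cav2, the partner of Cav1, fell. Its sham libraries ranged from 1086 to 1480 CPM (median 1267) and its Glenn libraries from 883 to 1233 CPM (median 1059). The groups overlapped on the control and excess diets; on the deficient diet every Glenn library (1063, 985, 1059, 1032 and 1030 CPM) lay below every sham library (1189, 1196, 1477, 1480 and 1272 CPM). Averaged over diets the log2 change was -0.27 (SE 0.05, edgeR adjusted p 4.83e-05), from 1275 ± 115 to 1066 ± 118 CPM (SD, n = 15 each). It was -0.31 on the control diet (adjusted p 0.00696), -0.34 on the deficient diet (adjusted p 0.00352) and, not called, -0.15 on the excess diet (adjusted p 0.269), by the same test. The averaged change of Cav2 was no longer called among the RT1-CE16-low libraries (-0.13, edgeR adjusted p 0.174) or relative to the endothelial markers (-0.12, adjusted p 0.083). On the control diet the RT1-CE16-low libraries gave -0.10 for Cav2 (adjusted p 0.696), and on the deficient diet series A gave -0.20, both not called.

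Among the cavins, the core subunit Cavin1 and the accessory subunit Cavin2 changed in opposite directions. Cavin2 ran from 907 to 1227 CPM in sham (median 998) and from 642 to 1124 CPM in Glenn libraries (median 809). On the control diet all 5 Glenn libraries (829, 809, 642, 744 and 711 CPM) lay below all 5 sham libraries (948, 1048, 960, 998 and 960 CPM), as they did on the deficient diet. The averaged log2 change was -0.32 (SE 0.05, edgeR adjusted p 1.24e-05). By diet it was -0.40 on control (adjusted p 0.00171), -0.38 on deficient (adjusted p 0.00308) and, not called, -0.19 on excess (adjusted p 0.200). It was -0.20 among the RT1-CE16-low libraries (adjusted p 0.0478) and -0.17 relative to the endothelial markers (adjusted p 0.0138). On the deficient diet series A gave -0.15 for Cavin2, not called, and on the control diet the RT1-CE16-low libraries gave -0.38, also not called.

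Cavin1 was counted at a low level, from 22.3 to 30.4 CPM in sham (median 26) and from 20.7 to 37.5 CPM in Glenn libraries (median 32.9), and the groups overlapped on every diet. It rose by an averaged log2 change of 0.30 (SE 0.07, edgeR adjusted p 0.000585), from 26.2 ± 2.47 to 31.8 ± 5.05 CPM (SD, n = 15 each). By diet the change was 0.29, 0.32 and 0.28 on control, deficient and excess, and only that on the deficient diet was called (edgeR adjusted p 0.0481). That call was lost without any 1 of 7 of the 10 libraries compared, replicates 1, 2 and 3 of sham and replicates 1, 2, 3 and 4 of Glenn, with adjusted p up to 0.187, and also with no filter and within the RT1-CE16-high libraries (0.15, adjusted p 0.637). Cavin3 ranged from 61.8 to 88.3 CPM in sham libraries and from 58.6 to 93.2 CPM after Glenn surgery and was not called (log2 change 0.09, 95% interval -0.03 to 0.21, edgeR adjusted p 0.227). Relative to the endothelial markers Cavin3 was called higher (0.24, adjusted p 0.000554), as it was in series A (0.15, adjusted p 0.0406).

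Ehd2, at the caveolar neck, rose. Its sham libraries ranged from 494 to 601 CPM (median 538) and its Glenn libraries from 527 to 725 CPM (median 637). The clearest separation was on the deficient diet, with 523, 494, 518, 590 and 593 CPM in sham libraries and 637, 659, 667, 642 and 654 CPM in Glenn libraries, where the groups did not overlap. The averaged log2 change was 0.19 (SE 0.05, edgeR adjusted p 0.00161), and that on the deficient diet 0.27 (adjusted p 0.0151). It was 0.10 on the control diet (adjusted p 0.432) and 0.20 on the excess diet (adjusted p 0.116), both not called. Without replicate 2 of sham the call on the deficient diet was lost (0.23, edgeR adjusted p 0.063), as it was within the RT1-CE16-high libraries (0.19, adjusted p 0.359).

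Averaged over diets, 2 of the 7 genes rose and 3 fell, beside 23.4% of all genes tested higher and 24.7% lower. The groups of 15 did not overlap for 1 of the 7 (Plvap) and for 5.83% of all genes. On the control diet 0 rose and 3 fell (11.8% and 13.1% of all genes), and 2 of the 7 did not overlap (17.2% of all genes). On the deficient diet 2 rose and 3 fell (13.7% and 13.7%), and 4 did not overlap (19.6%). On the excess diet 0 rose and 1 fell (11.6% and 10.4%), and 2 did not overlap (16.3%). The share of the 7 genes called was thus above that of all genes in some of these comparisons and below it in others. The median log2 change of the 7 was 0.08, beside -0.01 over all genes, and the median size of the change over all genes was 0.22, which the changes of Plvap, Cavin2, Cavin1 and Cav2 exceeded. By size of the fold, Plvap was past 2-fold lower, as were 2.72% of all genes, and no other member was past 2-fold in either direction.

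**Figure D2:**
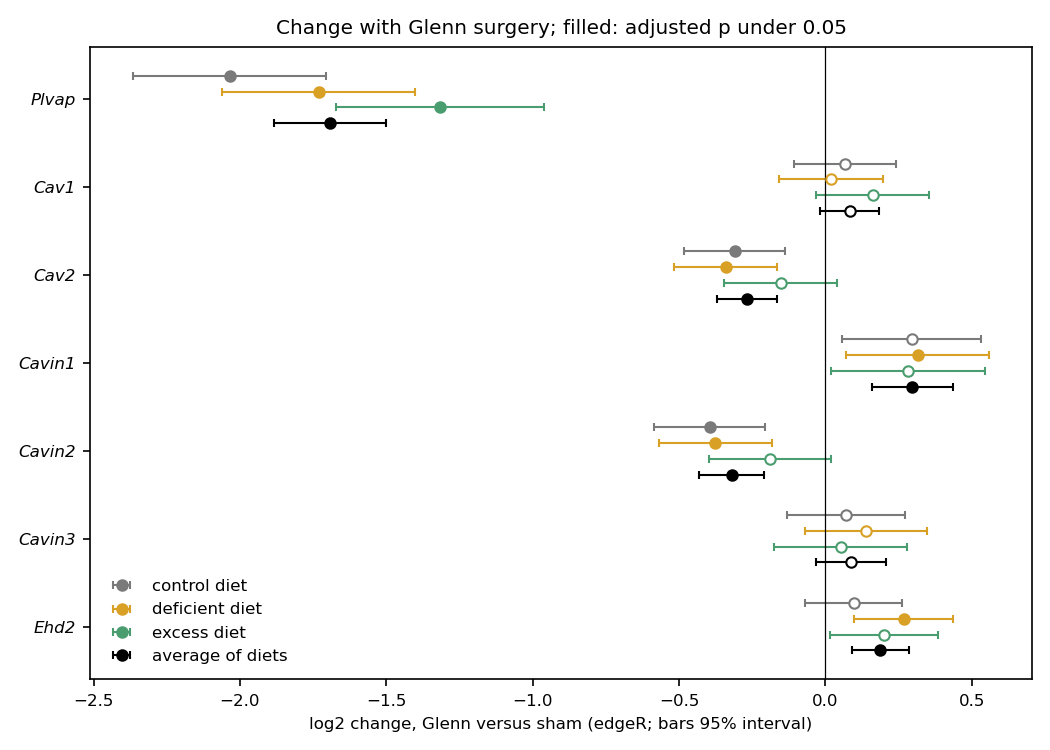
Log2 change after Glenn surgery relative to sham for each gene on each diet and averaged over diets, with 95% intervals from the edgeR fit; filled points have an adjusted p under 0.05. Plvap lies between -2.04 and -1.32, and the other 6 genes lie between -0.40 and 0.32.

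Markers of mural cells, which also carry caveolae, were higher after Glenn surgery. The mural list (8 of 8 tested, led by Myh11) summed to between 161 and 328 CPM in sham libraries and between 466 and 1687 CPM in Glenn libraries, and its mean log2 score was higher by 1.13, 1.57 and 1.64 on the control, deficient and excess diets (two-sided exact permutation test, p 0.00794 each, the smallest possible, adjusted p 0.0206 over 39 tests). Markers of type 1 alveolar cells, another cell type rich in caveolae, summed to between 765 and 1212 CPM in sham libraries and between 854 and 2198 CPM in Glenn libraries. Their score passed on the deficient diet only (0.62, exact permutation adjusted p 0.0344). Lymphatic markers summed to between 1010 and 1942 and between 2286 and 4957 CPM. Fibroblast markers (7 of 7 tested, led by Col3a1) summed to between 1275 and 3263 CPM in sham and between 1806 and 4693 CPM in Glenn libraries, and their score was higher on the deficient diet (0.88, exact permutation adjusted p 0.0206). Averaged over diets, edgeR called 6 of the 7 fibroblast markers higher. Type 2 alveolar markers, the most abundant of the lists from other cells (6 of 6 tested, led by Sftpc), summed to between 34800 and 59903 CPM in sham and between 24750 and 56230 CPM in Glenn libraries, edgeR called 6 of 6 lower averaged over diets, and their score was lower by 0.58 on the deficient diet (exact permutation adjusted p 0.0206) and by 0.54 on the excess diet (adjusted p 0.0464). On the control diet neither the fibroblast score (0.22, exact permutation adjusted p 0.510) nor the type 2 score (-0.18, adjusted p 0.510) passed. The part of these cell types in the changes of the 7 genes was not tested. All 20 of the 39 scores that passed kept their direction in series A alone. Every control diet library is of series A, so the scores on that diet could not change there.

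A ratio of 2 genes within a library does not depend on its depth, so each gene was also set against Cav1. The log2 ratio of Plvap to Cav1 was lower after Glenn surgery by 1.87 and that of Cav2 to Cav1 by 0.36, and neither overlapped between the surgeries within any diet. For both the two-sided exact permutation p was 1.25e-07, the smallest that permutation within diets can give, with an adjusted p of 1.50e-06 over 24 tests. By diet, the ratio of Plvap to Cav1 was lower by 2.14 on control, 1.66 on deficient and 1.81 on excess. This order of deficient and excess is the opposite of that for Plvap itself in the edgeR fit. The ratio of Cavin2 to Cav1 was lower by 0.44 (exact permutation adjusted p 2.00e-06). Those of Cavin1 (0.16, exact permutation adjusted p 0.0669), Ehd2 (0.09, adjusted p 0.0942) and Cavin3 (-0.01, adjusted p 0.933) did not pass averaged over diets. On the deficient diet the ratios of Cavin1 (0.35, exact permutation adjusted p 0.0293) and Ehd2 (0.26, adjusted p 0.0408) were higher, while on the excess diet they differed by -0.07 (adjusted p 0.848) and -0.01 (adjusted p 0.977). So the neighbouring genes Cav1 and Cav2 changed by unequal amounts, and on the excess diet, where the change of Cav2 itself was not called, its ratio to Cav1 was still lower by 0.33 (exact permutation adjusted p 0.0173). The ratio tests carried no series term, unlike the edgeR fit. On the excess diet every sham library was of series A and Glenn replicates 3 to 5 were of series B. Surgery and series cannot be fully told apart there, and in series A alone the excess ratios of Cavin1 and Ehd2 turned positive.

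Diet without Glenn surgery moved none of the 7 genes past the threshold. Among sham libraries 0 of 7 were called for deficient against control diet (0% of all genes), excess against control (0.241%) and excess against deficient (0.0124%) by edgeR, 0 had an unadjusted p under 0.05, and DESeq2 and limma voom also called 0 in each. Plvap means there were 5109 ± 345, 4719 ± 811 and 5619 ± 444 CPM on the control, deficient and excess diets (SD, n = 5 each).

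After Glenn surgery, Plvap stood higher on excess than on control diet. The 5 libraries on excess ran from 1317 to 3124 CPM and the 5 on control from 928 to 1699 CPM, so that the groups overlapped. Their means were 1943 ± 724 and 1246 ± 320 CPM (SD, n = 5 each), and the log2 difference in the fit was 0.86 (SE 0.17, 95% interval 0.51 to 1.20, edgeR adjusted p 0.0106). It was the 1 of the 7 genes called in that comparison, beside 1.47% of all genes, while 3 of the 7 had an unadjusted p under 0.05. The call changed with the fit and with the libraries used. The 2 series A libraries on excess held 3124 and 2128 CPM and the 3 of series B 1317, 1549 and 1597 CPM, with all control libraries in series A. Without the series term the difference in Plvap was 0.64 (edgeR adjusted p 0.180), and without replicate 1 on excess it was 0.62 (adjusted p 0.181). Within the RT1-CE16-low libraries it was 0.88 (adjusted p 0.108), and within the RT1-CE16-high ones 0.61 (adjusted p 0.207). A fit of only the groups compared gave 1.05 (adjusted p 0.0822). The call held under the other 18 of 23 alternatives, among them series A alone (1.07, adjusted p 0.00895), DESeq2 (0.85, adjusted p 0.000281) and limma voom (0.85, adjusted p 0.00399).

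Cavin2 showed the next largest difference between these diets, 0.36 (SE 0.10), which edgeR did not call (adjusted p 0.0714), while DESeq2 (adjusted p 0.0288) and limma voom (adjusted p 0.0351) did. Its libraries after Glenn surgery held 1124, 943, 890, 839 and 753 CPM on excess. Cav2 differed by 0.22 (edgeR adjusted p 0.267). For deficient against control after Glenn surgery 0 of 7 were called (0.00618% of all genes), and Plvap differed by 0.45 (unadjusted p 0.0117, edgeR adjusted p 0.348), the 1 of the 7 with an unadjusted p under 0.05. For excess against deficient 0 of 7 were called (0% of all genes), and 3 had an unadjusted p under 0.05, among them Plvap with 0.41 (edgeR adjusted p 0.902). The interaction called 0 of 7 (0.00618% of all genes), and Plvap alone had an unadjusted p under 0.05. DESeq2 and limma voom called 0 in these 3 comparisons as well.

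Several genes followed Plvap closely across the 30 libraries. Among 9625 genes averaging 10 CPM or more, the closest in log2(CPM + 1) was Eng, endoglin, a co-receptor for BMP9 and BMP10 on endothelial cells (Pearson r 0.992), followed by Acvrl1, the ALK1 receptor of the same ligands (0.986), Tspan7 (0.983), Slc29a1, a nucleoside transporter (0.980), and Pxdc1 (0.979). All libraries share the difference between sham and Glenn, which raises such values. With the 6 group means removed, Eng (0.948) and Acvrl1 (0.854) again came first, then Rasip1 (0.833), Smad6 (0.833), an inhibitory SMAD, and Zbtb39 (0.823). Eng ranged from 1599 to 2730 CPM in sham libraries and from 587 to 1330 CPM in Glenn libraries. Its lowest sham library was replicate 3 on the deficient diet and its highest Glenn library replicate 1 on the excess diet, the same 2 libraries as for Plvap.

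**Figure D3:**
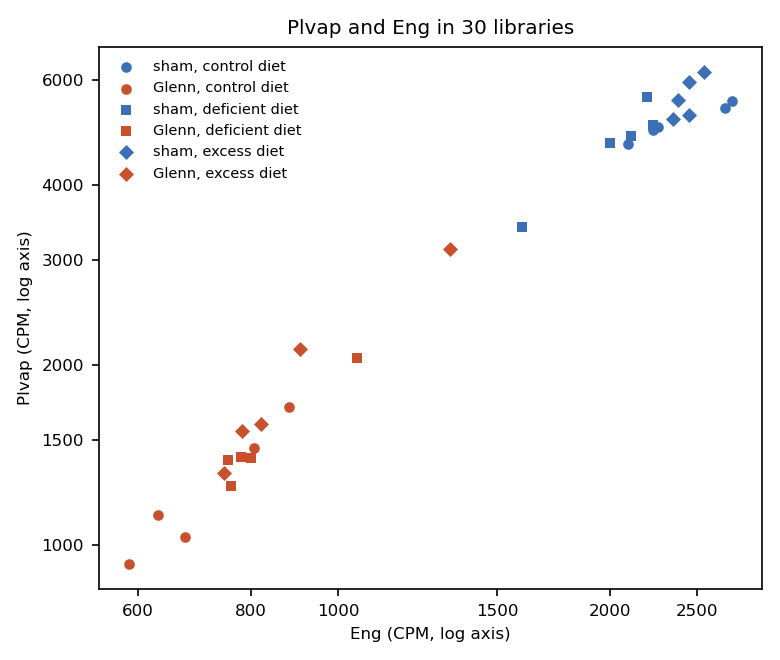
CPM of Plvap against Eng in the 30 libraries, both axes logarithmic; blue is sham and red is Glenn surgery, and the marker shape gives the diet. Sham and Glenn libraries form separate clouds, with Eng at 1599 to 2730 and 587 to 1330 CPM, and within the clouds libraries with more Eng tended to hold more Plvap (r over all libraries 0.992, with group means removed 0.948).

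Over all libraries the closest genes of the other members had lower r, and these members also differed less between sham and Glenn. With group means removed, only Plvap and Cav1 were examined. Cav1 was closest to Asap1, an ARF GTPase-activating protein (r 0.866, and 0.891 with group means removed), Galnt10 (0.760), Plau, urokinase (0.747), Clu (0.708) and Zdhhc18 (0.698). With group means removed the next after Asap1 were AABR07007032.1 (0.831), Plau (0.779), Slc22a5 (0.776) and Pam (0.776). Cav2 was closest to Tm6sf1 (0.895), Mgll (0.872), Spata2 (0.867), Parvb (0.864) and ENSRNOG00000066426 (0.863), and Cavin2 to Rap1a (0.907), Map3k8 (0.901), Epb41l2 (0.894), Zdhhc2 (0.889) and Sptssa (0.886). Ehd2 was closest to Sox4 (0.844), Capzb (0.842), Tie1 (0.841), Cep68 (0.836) and Armcx2 (0.835). Cavin1 was closest to Hba-a2 (0.795), Ccdc124 (0.788), ENSRNOG00000066636 (0.783), Maged1 (0.782) and Ppp1r9b (0.767), and Cavin3 to Ubald1 (0.743), Tgfb1i1 (0.733), Rab11b (0.729), Slc25a4 (0.715) and S100a16 (0.681). No member was among the 5 closest genes of another.

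Between the 7 genes themselves, correlations were taken within the 15 sham and the 15 Glenn libraries, with group means removed. The median Pearson r over the 21 pairs was 0.33 in sham and 0.50 in Glenn libraries. In sham libraries Cav1 and Cav2 had the highest value (r 0.80, Spearman rho 0.78, permutation p 0.00307 and 0.00859, adjusted p 0.0540 and 0.114). In Glenn libraries it was Cavin2 and Plvap (r 0.76, rho 0.68, permutation p 0.00386 and 0.01085, adjusted p 0.0540 and 0.114). Without the 2 libraries farthest from the median of the first gene named, Cav1 or Cavin2, r was 0.72 and 0.67. Libraries far out in the second gene were not sought. By Pearson r, 0 of the 42 pairs passed after adjustment.

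Genes that work beside the caveolar coat changed in both directions. Of 13 neck, coat and anchoring partners, 6 rose, 4 fell and 3 did not pass, with a median log2 change of 0.33. The EHD ATPases related to Ehd2 divided: Ehd4 fell by 0.80 on the log2 scale, from 1503 ± 105 to 855 ± 158 CPM, and Ehd1 fell by 0.75, from 566 ± 63.9 to 333 ± 50.8 CPM, while Ehd3 rose by 1.09, from 10.8 ± 2.49 to 23.8 ± 7.21 CPM (SD, n = 15 each). Dnm2, the dynamin that cuts vesicle necks, fell by 0.48. Flna, filamin A, which ties caveolae to actin, rose by 1.06, and the kinase Abl1 rose by 0.53. The muscle forms Cav3 and Cavin4 were measured below 1 CPM on average and were not called.

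Of 9 tested genes for proteins known in endothelial caveolae, 5 rose, 3 fell and 1 did not pass, with a median log2 change of 0.48. The risers were led by Scarb1, a lipoprotein receptor (1.70, from 189 ± 21.7 to 613 ± 104 CPM), Trpv4, a calcium channel (1.35), and Nos3, the endothelial nitric oxide synthase (0.91, from 81.9 ± 10.1 to 154 ± 35.2 CPM). The receptors Acvrl1 (-1.39, from 1713 ± 122 to 644 ± 147 CPM), Bmpr2 (-1.30) and Kdr, VEGF receptor 2 (-0.85), fell. After Glenn surgery Acvrl1, like Plvap, was called higher on excess than on control diet (0.52, edgeR adjusted p 0.0344).

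Of 8 permeability regulators, 2 rose, 5 fell and 1 did not pass, with a median log2 change of -0.50. Angpt2, a Tie2 antagonist, rose by 2.38, from 16.1 ± 1.27 to 85.0 ± 18.1 CPM, and Angpt1, its agonist, rose by 0.43. Vegfa fell by 1.77 on the log2 scale, from 1316 ± 196 to 388 ± 56.1 CPM, and Kdr and Nrp1, which bind it, fell by 0.85 and 0.74. Of 11 genes for clathrin, AP-2 and flotillins, other routes of uptake, 4 rose, 1 fell and 6 did not pass, with a median of 0.02. Here the largest rises were those of Flot2 (0.24), Picalm (0.22) and Flot1 (0.18), and Cltb fell by 0.10 on the log2 scale. All these counts are by edgeR over all 16171 genes, where 23.4% rose and 24.7% fell.

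**Figure D4:**
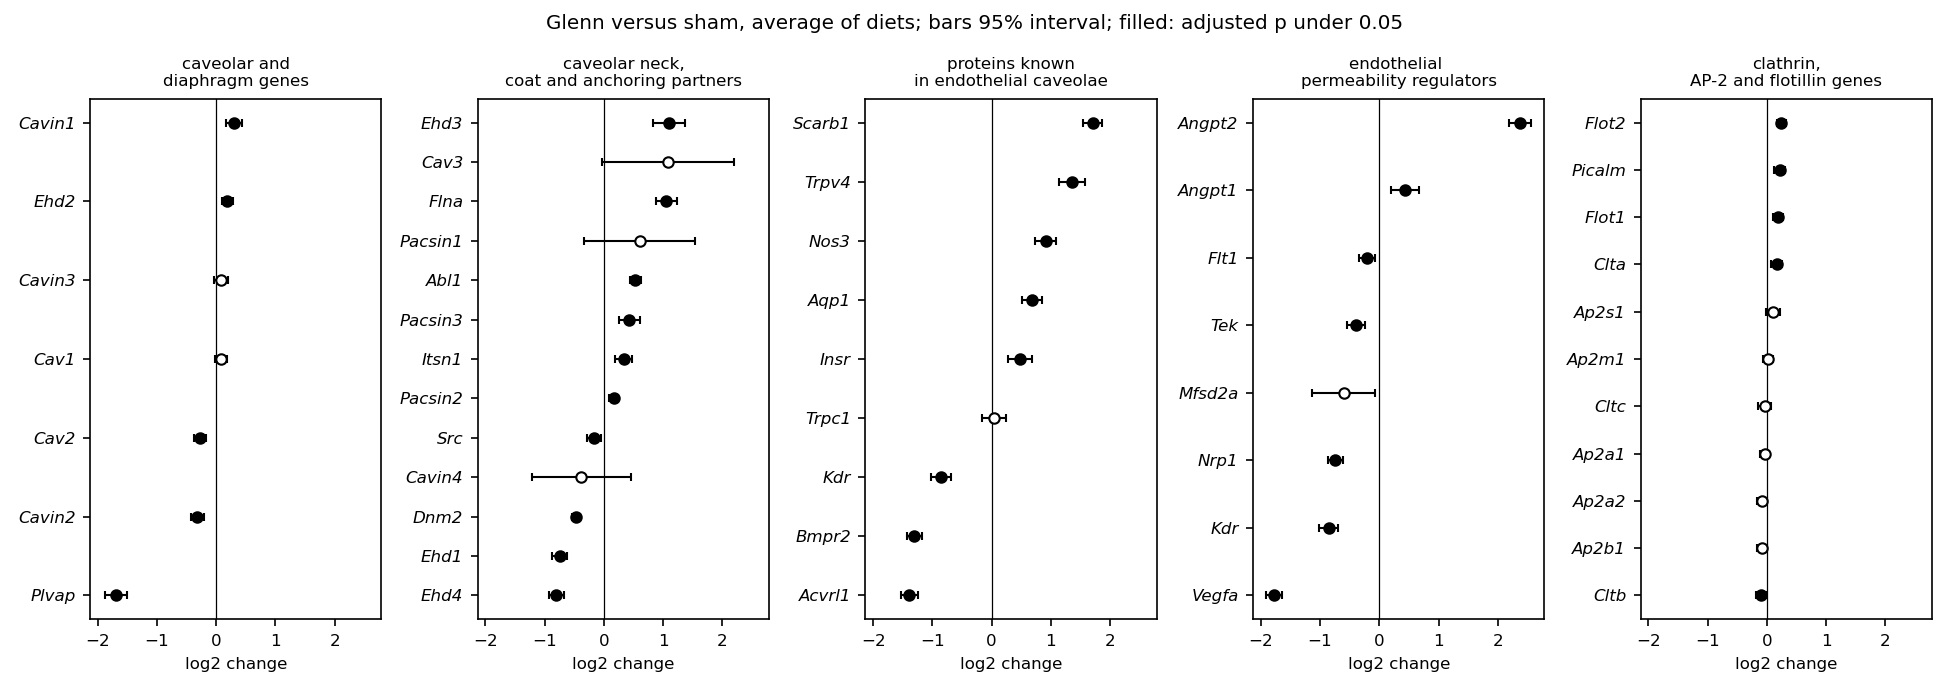
Log2 change after Glenn surgery, averaged over diets, of the 7 genes and of 4 lists of partner genes, with 95% intervals; filled points have an edgeR adjusted p under 0.05. The partner genes spread from -1.77 (Vegfa) to 2.38 (Angpt2), and the clathrin, AP-2 and flotillin genes stay between -0.10 and 0.24.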

How the data were processed

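Values are estimated counts by gene from Salmon as deposited by the authors, going by the table's name. The submitters' processing notes also name FastQC, Trim Galore, Picard and STAR and the build mRatBN7.2 (rn7), with no versions. Per the labels, PureLink RNA went into SMART-Seq v4 libraries. All 30 sample columns were used, and 13.6% of values were not whole. Counts were rounded and filtered with filterByExpr of edgeR 4.0.16 (minimum count 10, total 15) in R 4.3.3, and scaled by TMM (factors 0.938 to 1.06). The quasi-likelihood test used 1 fit of the 6 group means and the library series. P-values were adjusted by Benjamini-Hochberg over 16171 genes, and an adjusted p under 0.05 is a call. Within groups, library pairs had a chi-square per degree of freedom of at least 20.1, above sampling noise. Ratios to Cav1 and marker scores (mean log2(CPM + 1)) were tested by exact permutation with no series term. Only the averaged Glenn versus sham contrast was run on simulated data, with edgeR, DESeq2, limma voom and relative to the endothelial markers. Counts are not per length, so where genes or lists are ordered by counts or CPM, this is not an order of transcript number. Values of Cd36 and Hbb are not analysed here. Named genes were the 7 members, the 3 largest called rises and falls of each list, the 5 closest genes of each member and the most abundant marker of a cell type; Cav3 and Cavin4 were added after their values were seen. DESeq2 1.42.0 and limma 3.58.1 were alternatives. The genes, lists and tests were chosen with earlier results of these data known.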

Additional observations from a re-analysis of the deposited data

Results flagged for a closer look

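In 3 of 42 sets of 5 libraries (7 genes in 6 groups), 1 library stood apart by its gap to the nearest other relative to the range, where chance gives about 1 in 20, or 2.1 sets. Plvap in replicate 1 of Glenn on the deficient diet was 2058 CPM, beside 1257 to 1405 CPM in the other 4 (gap over range 0.815). Replicate 1 also held the most Plvap after Glenn surgery on the control diet (1699 CPM) and on the excess diet (3124 CPM). Cav2 in replicate 1 of Glenn on the control diet was 1233 CPM, beside 883 to 980 CPM (gap over range 0.723). Cavin3 in replicate 3 of Glenn on the deficient diet was 89.4 CPM, beside 74.8 to 78.9 CPM (gap over range 0.720).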

How the results depend on the processing

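The falls of Plvap on each diet and averaged, and the averaged changes of Cavin1, Cavin2 and Ehd2, kept their direction and stayed past the threshold under every alternative run. The number of the 7 genes called averaged over diets was 5 in the fit with the replicate block, as in the main one. It was also 5 with RT1-CE16 level and sex in place of series, and 5 to 5 leaving out each library. In series A it was 7, and relative to the endothelial markers 6. Same-numbered libraries of different groups deviated together (r above 0.1) in 38 of 75 pairs (median 0.10), beside 52 of 300 differently numbered pairs (median -0.02). By Ddx3y and RT1-CE16, replicate 1 was male and RT1-CE16-low in all 6 groups, and replicate 2 was female and RT1-CE16-low in all 6. The labels tie no number to a shared source, so the numbers were not taken to pair the samples. A shared source of same-numbered libraries was not excluded. The replicate block changed no call of the 7 genes on any contrast between surgeries. On the control diet 1 gene was called among the RT1-CE16-low libraries, and 3 to 4 leaving out each library. On the deficient diet 3 were called in series A, 3 in the RT1-CE16-low and 3 in the RT1-CE16-high libraries, and 3 to 5 leaving out each library. On the excess diet 3 were called with no series term, 3 relative to the endothelial markers, 2 in series A and 2 among the RT1-CE16-low libraries, and 1 to 2 leaving out each library. For excess against control diet after Glenn surgery 0 were called with no series term, 0 in a fit of only the groups compared, 0 within each RT1-CE16 level, 2 in series A, 2 by DESeq2 and 2 by limma voom, and 0 to 3 leaving out each library; the cause was not tested.

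The Cav1 change turned negative on the control diet in the RT1-CE16-high libraries (-0.030) and on the deficient diet with no series term (-0.0034), with limma voom (-0.011), in the RT1-CE16-high libraries (-0.18) and over a range of -0.056 to 0.080 leaving out each library. The Cavin3 change on the excess diet ran from -0.014 to 0.13 leaving out each library. In series A, 7 ratio tests to Cav1 passed in place of 14 and 0 marker scores in place of 20. With 2 sham against 3 Glenn libraries on the deficient diet and 5 against 2 on the excess diet, few assignments of the labels exist there, so these counts say nothing about stability. All 20 scores kept their direction, which was fixed in advance on the control diet, where every library is of series A. The ratios of Cavin1 (0.20) and Ehd2 (0.053) to Cav1 on the excess diet turned positive in series A. The fits within each RT1-CE16 level were chosen after seeing the data. Cavin1 had the fewest counts of the 7.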
